A study of Mus musculus with 10 samples.

Results

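Cytochrome P450 genes of the mouse kidney were described in control mice and in mice given rilmenidine, an oral antihypertensive agonist of imidazoline type 1 receptors. The members were the protein-coding genes whose symbol is Cyp followed by a family number and a subfamily letter, which gave 99 of the 43629 genes in the count table. Cyp51, the lanosterol demethylase, carries no subfamily letter and was therefore not a member. The libraries came from kidneys of UM-HET3 males, a genetically heterogeneous stock, all sacrificed at 4 months of age. Both groups ate Purina 5LG6 diet; 6 littermates ate it plain as controls, and 4 mice ate it with 10 ppm of rilmenidine for 1 month from 3 months of age. Polyadenylated RNA was counted with a 3′ tag method in which reads per gene do not scale with transcript length. Because each animal of this stock has its own genotype, differences between animals include inherited ones, and these cannot be told apart from other differences between animals.

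P450 enzymes are heme-thiolate monooxygenases: a cysteine of the protein holds the heme iron, and a partner protein supplies electrons to split oxygen and insert 1 atom of it into the substrate. In the kidney they lie mainly in the proximal tubule, where Cyp4 enzymes hydroxylate fatty acids including arachidonic acid, Cyp2 enzymes make epoxides from arachidonic acid or act on steroids and foreign compounds, and mitochondrial enzymes activate and break down vitamin D. Mouse P450 genes are known for large sex differences in kidney and liver, many of them set by androgen or growth hormone.

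The heme-holding cysteine lies in the cytochrome P450 heme-binding signature, a short stretch shared by families that otherwise differ widely. A search of the longest coding transcript of each member (GENCODE M21, GRCm38) found the signature in 92 of 99 members, always 1 time. The coding strand of the signature follows for the members that the levels and group differences turn on, as 30 bases with the cysteine codon in capitals.
Cyp4b1: ttttctgcagggcccaggaatTGCattggg
Cyp4a12a: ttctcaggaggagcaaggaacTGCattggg
Cyp4a10: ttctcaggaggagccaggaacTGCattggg
Cyp2e1: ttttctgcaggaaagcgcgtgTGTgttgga
Cyp2j5: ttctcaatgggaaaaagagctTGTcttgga
Cyp2j9: ttctcaatgggaaaacgtgctTGTcttgga
Cyp2a4: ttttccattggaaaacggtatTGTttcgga
Cyp2d9: ttctcagcaggccgcagatcaTGCctgggg
Cyp24a1: tttggcgtcgggaagaggatgTGCatcggg
Cyp27a1: ttcggctatggggttcggtctTGCctgggt

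The cysteine was encoded by TGC in 57 members and by TGT in 35. The windows of Cyp4a12a and Cyp4a10 differed at 1 of 30 bases, and those of Cyp4b1 and Cyp4a10 at 6. Cyp2a4 had the same 30 bases as Cyp2a5, Cyp4a12a the same as Cyp4a12b, and Cyp4a10 the same as Cyp4a31. The window lay in 1 exon in 26 members, among them Cyp24a1 (chr2:170485929-170485958, minus strand) and Cyp27a1 (chr1:74737320-74737349, plus strand), and ran across an exon junction in the other 66, as in Cyp4b1 (chr4:115625216-115625662, minus strand, intron included). The 7 members in which the pattern was not matched were Cyp20a1, Cyp2b10, Cyp2s1, Cyp2t4, Cyp39a1, Cyp7b1 and Cyp8b1.

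Library totals were 863605 to 2559118 counts in the controls and 1813465 to 3232063 in the rilmenidine group. The extraction text of the labels speaks of liver although the samples are labelled kidney, so markers were checked. Genes of the S1 and S2 segments of the proximal tubule summed to 8620 to 10927 normalized CPM (counts as a rate per library, after RLE scaling) in the controls and 8350 to 10101 in the rilmenidine group, whereas 12 liver genes summed to 40.6 to 81.0 and 36.7 to 87.4 CPM, with albumin at most at 11.8 CPM and Mup20 at 0 in every library. Olfactory and vomeronasal receptor genes, which mark sensory neurons of the nose, reached 10 CPM in 7 libraries (controls 1 to 5 and rilmenidine 1 and 2) and were highest in control 2 at 350.0 CPM and rilmenidine 2 at 442.0 CPM. These 2 libraries also had a count on 47 of the 72 low P450 genes, against 10 to 26 in the other libraries. Malat1, a nuclear RNA, stood at 1165 to 2074 CPM in controls 1, 3, 4 and 5 and at 282 to 391 CPM in the 6 other libraries. The part of either measure in the group differences was not tested, and for the members with an unadjusted p under 0.05 the values that such libraries move are given with them.

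P450 genes took 1.25% ± 0.0769 (SD, n = 6) of all counts in the control kidneys and 1.22% ± 0.203 (SD, n = 4) in the rilmenidine kidneys. The share ran from 1.13% to 1.35% in the controls and from 1.03% in rilmenidine 2 to 1.49% in rilmenidine 4, so the control range lay inside that of the treated animals. A minority of members carried nearly all of it. The 4 highest, Cyp4b1, Cyp2e1, Cyp4a12a and Cyp2j5, held 84.0% to 87.3% of P450 counts in the controls, and Cyp4b1 alone held 42.3% to 46.2%. By family, Cyp4 held 61.0% and Cyp2 held 37.6% of the P450 counts of control kidneys on average, and the 2 groups had similar ranges (Cyp4 59.5% to 64.2% in controls and 56.6% to 62.2% with rilmenidine, Cyp2 34.5% to 39.1% and 36.0% to 40.8%). In whole kidney RNA, fewer cells of a type and less RNA per cell cannot be told apart.

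Of the 99 members, 27 had 6 reads or more in 7 kidneys or more and were tested, as were 10055 of all genes. The 72 others comprised 8 without a count in any kidney, 40 with 1 to 9 counts over all kidneys and 24 with more. A count of 0 in all 19387497 reads allows a level of up to 0.155 CPM (3 counts, counting error only), and this applied to Cyp2b9, Cyp2b13, Cyp2c54, Cyp4a30b, Cyp4f37, Cyp4f40, Cyp11b2 and Cyp26c1. Just inside the filter lay Cyp2j9, Cyp2c23 and Cyp26b1 with 163, 136 and 102 counts in all, and just outside it Cyp4a14, Cyp2c69 and Cyp2s1 with 132, 102 and 66. None of the 9 Cyp3 genes, the main drug-metabolizing family of liver, passed the filter, and the highest, Cyp3a11, stood at 1.31 CPM in controls. None of the 6 genes of steroid hormone synthesis passed it either, and the highest of these, Cyp11a1, which cleaves the side chain of cholesterol, had 5 counts over all kidneys. The adrenal gland makes some of these steroids. Its markers summed to 1.71 to 9.43 CPM in the controls and 3.41 to 12.6 CPM with rilmenidine. Among them, Chga, Dbh, Pnmt and Th were at 0 in all kidneys. Low counts did not spread evenly over the libraries, since rilmenidine 2 and control 2, both with high receptor counts, had 131.2 and 73.1 CPM on these 72 members against 24.4 to 49.9 CPM in the 8 other libraries.

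**Figure D1:**
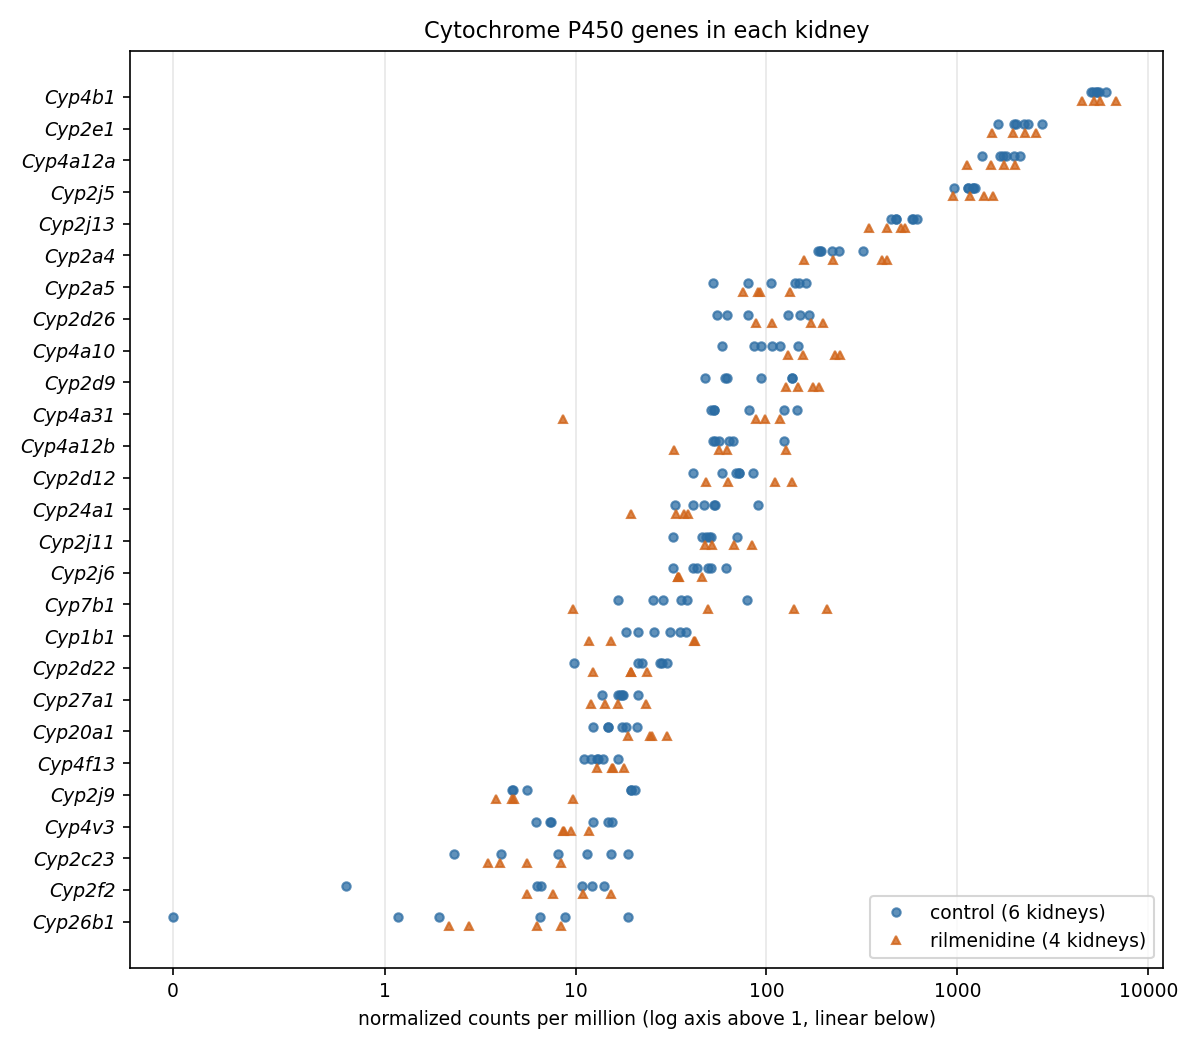
Normalized CPM of the 27 tested P450 genes in each kidney, on a log axis above 1 and a linear one below; circles are the 6 control and triangles the 4 rilmenidine kidneys, and genes are ordered by their control mean. Cyp4b1 lies above all other genes in every kidney, while most genes further down overlap with their neighbours.

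Cyp4b1, which hydroxylates medium-chain fatty acids and activates some toxins, was the most abundant member. Its levels were 4990, 5990, 5554, 5300, 5393 and 5163 CPM in controls 1 to 6 and 5613, 4502, 5222 and 6809 CPM in rilmenidine 1 to 4. Rilmenidine 2 was the lowest and rilmenidine 4 the highest of all kidneys, and the control values lay between them. The difference between groups was 0.04 on the log2 scale with a standard error of 0.15 (edgeR quasi-likelihood test, Benjamini-Hochberg adjusted p = 0.965). Its control level exceeded that of 99.9% of all tested genes on the CPM scale.

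Cyp2e1, which oxidizes ethanol, acetone and many solvents, followed with 1640 to 2765 CPM in the controls and 1521 to 2579 CPM in the rilmenidine group. Cyp4a12a, the arachidonic acid ω-hydroxylase typical of male mouse kidney, had 1354 to 2125 CPM in the controls and 1130 to 2004 CPM with rilmenidine. Cyp2j5, an arachidonic acid epoxygenase of the proximal tubule, had 956 to 1235 CPM in the controls and 943 to 1533 CPM with rilmenidine. For all 3 genes the ranges of the groups overlapped widely, and their differences were -0.06 (SE 0.17), -0.15 (SE 0.17) and 0.13 (SE 0.14) on the log2 scale. Cyp2j13, a neighbour and relative of Cyp2j5, stood at 530.3 ± 70.6 CPM (SD, n = 6) in the controls and 453.1 ± 84.3 CPM (SD, n = 4) in the treated kidneys.

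The order from Cyp4b1 to Cyp2a4 was steady between animals: each gene exceeded the next in all 6 controls, except that Cyp2e1 exceeded Cyp4a12a in 5. Cyp2a5, Cyp2d26, Cyp4a10, Cyp2d9, Cyp4a31, Cyp4a12b and Cyp2d12 came next with control means from 114.8 down to 66.3 CPM, and here each gene exceeded the next in only 2 to 4 of 6 controls, so these neighbours did not differ beyond their spread. Divided by the length of the longest annotated transcript, the first 4 kept their places (2853, 1181, 733.4 and 489.7 CPM per kilobase), Cyp2a4 moved ahead of Cyp2j13 (129.8 against 121.2), and Cyp24a1 went from the 14th place to 14.9 CPM per kilobase and the 16th. In all, 9 members exceeded 100 CPM in the controls and 25 exceeded 10 CPM.

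Most members lie in gene clusters. With neighbouring starts up to 1 Mb apart, 7 clusters of at least 4 members held 69 members, of which 18 were tested, and 23 members stood alone, of which 9 were tested. The Cyp4a and Cyp4b cluster (GRCm38 chr4:115106323-115647723, 10 members, 5 tested) gave 60.7% of the P450 CPM of control kidneys, and the Cyp2j cluster on the same chromosome (chr4:96027534-96664154, 8 members, 5 tested) gave 14.6%. Cyp2e1, alone at chr7:140763739-140774987, gave 17.7%. At the other end, the Cyp2c cluster (chr19:39007019-40187333, 14 members) and the Cyp3a cluster (chr5:145345279-146113287, 8 members) had no tested member and summed to 7.60 and 2.99 CPM over all their genes. Cyp2c23, an arachidonic acid epoxygenase gene on chromosome 19 outside the cluster, alone stood at 10.0 ± 6.43 CPM (SD, n = 6) in the controls.

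Several neighbours are near copies. The coding sequences of Cyp4a12a and Cyp4a12b were 98.5% identical, as were those of Cyp2a4 and Cyp2a5, and those of Cyp4a10 and Cyp4a31 were 96.6% identical. What counts for a 3′ tag library is the end of the transcript: in the last 500 bases, 21 of the 27 tested members shared no run of 100 bases with another gene. Cyp4a12a and Cyp4a12b shared 28.4% of such runs, so reads could have been split or lost between them, and Cyp2a4 shared 5.74% with Cyp2a5. Cyp2e1 shared 6.48% with Fcho2, Cyp2d9 4.99% with the pseudogene Cyp2d41-ps, which had no count, and Cyp2d26 1.496% with Cyp2d22, whereas the ends of Cyp2a5, Cyp4a10 and Cyp4a31 shared none. Only the end of the longest transcript of each gene was searched, so a 0 does not exclude shared sequence elsewhere in the gene. The end of Cyp4a32, a member under the filter with 10 counts over all kidneys, shared 43.1% of its runs with Cyp4a31. Among the tested members, Cyp4a12a and Cyp4a12b had the largest shared part by this measure.

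Cyp2a4, a testosterone 15α-hydroxylase, and Cyp2a5, a coumarin 7-hydroxylase, are shown with their promoters because the copies were so alike and their levels were not. The 250 bases ending near the start of each gene (RefSeq, GRCm38.p6, plus strand, chr7:26306942-26307191 and chr7:26835089-26835338) were 98.4% identical. Capitals mark GTTAAT, part of the HNF1 consensus, and TATAAA, the TATA box.
Cyp2a4: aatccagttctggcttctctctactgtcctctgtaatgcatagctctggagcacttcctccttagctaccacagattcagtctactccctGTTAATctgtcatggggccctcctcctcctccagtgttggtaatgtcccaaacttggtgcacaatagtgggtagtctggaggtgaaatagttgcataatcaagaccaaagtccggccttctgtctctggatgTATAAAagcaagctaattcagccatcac
Cyp2a5: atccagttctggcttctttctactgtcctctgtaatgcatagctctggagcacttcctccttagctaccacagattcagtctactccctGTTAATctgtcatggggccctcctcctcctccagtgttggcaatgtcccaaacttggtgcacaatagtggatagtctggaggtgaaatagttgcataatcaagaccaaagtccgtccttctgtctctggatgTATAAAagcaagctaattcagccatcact

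The GTTAAT began 160 bases before the start of Cyp2a4 and 161 before that of Cyp2a5, and the TATAAA 28 and 29 bases before. On both strands, TATAAA occurred in 38.2% of the 76 members with a promoter in the RefSeq table against 14.3% of the promoters of all 27025 genes there, and GTTAAT in 14.5% against 7.49%. AGGTCA, the core element of many nuclear receptors, occurred in 23.7% of members and 15.8% of all genes. Among the 18 tested members in the table the shares were 38.9% for TATAAA, 16.7% for GTTAAT and 11.1% for AGGTCA. These shares count letters and say nothing of binding, and members of one cluster share sequence.

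Cyp2a4 stood at 193.2, 219.8, 321.4, 241.4, 190.8 and 187.0 CPM in controls 1 to 6 and at 157.7, 223.4, 401.3 and 430.0 CPM in rilmenidine 1 to 4. Cyp2a5 stood at 105.5, 80.1, 161.1, 147.9, 52.6 and 141.7 CPM in the controls and at 92.3, 90.6, 132.4 and 75.3 CPM with rilmenidine. Cyp2a4 was the higher in all 10 kidneys, by 1.32 to 3.63 times in the controls and 1.71 to 5.71 times with rilmenidine. The 2 genes did not move together kidney by kidney: rilmenidine 4 had the highest Cyp2a4 level and a Cyp2a5 level below all but control 5. Against control, Cyp2a4 differed by 0.43 (SE 0.23, adjusted p = 0.536) and Cyp2a5 by -0.23 (SE 0.25, adjusted p = 0.805) on the log2 scale in edgeR. Among the 7 libraries of at least 10 receptor CPM, Cyp2a4 differed with rilmenidine by a log2 value of -0.28. These leave out rilmenidine 3 and 4 and also control 6.

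**Figure D2:**
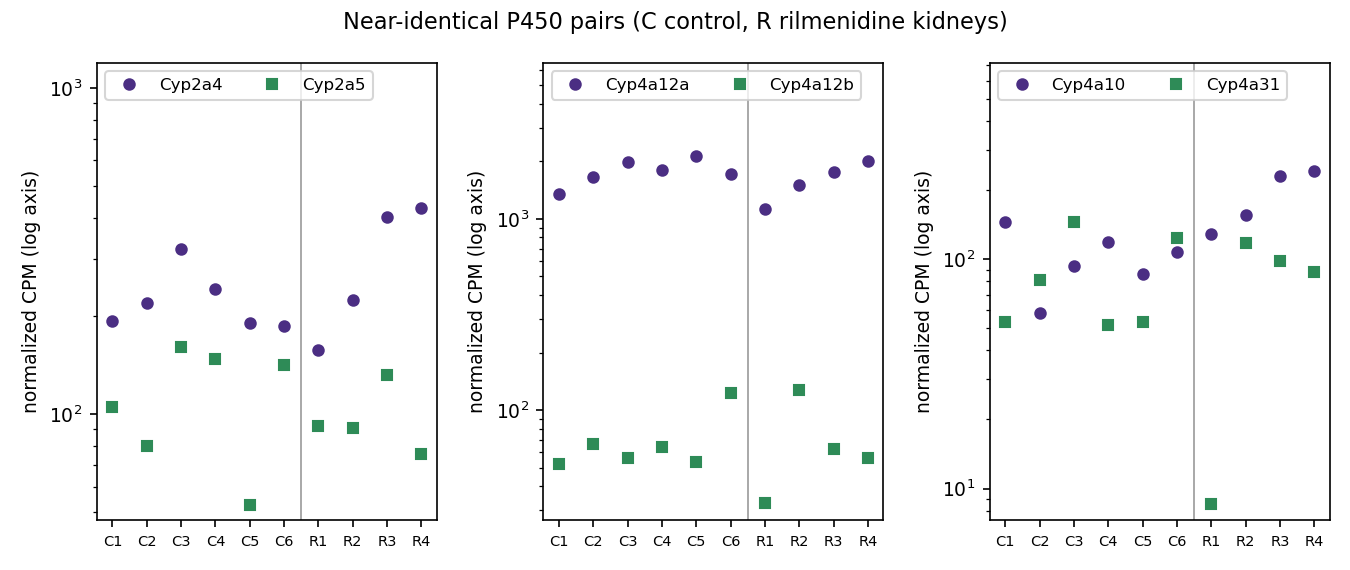
Normalized CPM (log axis) of 3 pairs of near-identical P450 genes in controls C1 to C6 and rilmenidine kidneys R1 to R4, left and right of the line. Cyp2a4 lies above Cyp2a5 and Cyp4a12a above Cyp4a12b in every kidney, whereas Cyp4a10 and Cyp4a31 cross, and Cyp4a31 is lowest in R1 at 8.60.

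Cyp4a12a exceeded Cyp4a12b by 14.0 to 39.6 times in the controls and 11.9 to 35.7 times with rilmenidine, and Cyp4a12b was highest in control 6 at 123.1 CPM and rilmenidine 2 at 127.0 CPM, against 32.7 to 66.58 CPM in the 8 other kidneys. Cyp4a31, a fatty acid hydroxylase gene of the same cluster, stood at 53.3, 81.3, 144.8, 51.5, 53.1 and 123.1 CPM in the controls and at 8.60, 117.5, 98.0 and 88.1 CPM with rilmenidine. Rilmenidine 1 thus lay far below all other kidneys for Cyp4a31, while its Cyp4a10 level of 129.0 CPM lay inside the control range. The ratio of Cyp4a10 to Cyp4a31 ran from 0.644 to 2.73 in the controls and reached 15.0 in that animal.

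The spread between control animals was wide for P450 genes. The coefficient of variation over 6 controls had a median of 29.4% over the 27 tested members and of 23.6% over all tested genes, and after removal of the part that counting alone gives at these depths the medians were 27.0% and 15.4%. With each control left out in turn the median beyond counting was 18.7% to 28.7% for the members. The smallest observed coefficients were those of abundant members: Cyp4b1 had a coefficient of 6.45% and Cyp2j5 of 8.90%, where counting alone gives 1.14% and 2.47%. Cyp20a1, an orphan P450 without an established substrate, Cyp27a1 and Cyp4f13 varied no more than counting alone would give, at 18.9%, 14.1% and 14.4%.

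The widest spread beyond counting was that of Cyp26b1, which breaks down retinoic acid, with 108.3%, followed by Cyp2j9 with 61.4% and Cyp2c23 with 58.4%. Cyp26b1 stood at 0, 1.18, 6.54, 8.83, 18.9 and 1.94 CPM in controls 1 to 6 and at 6.31, 8.43, 2.78 and 2.17 CPM with rilmenidine. Cyp2j9, a relative of Cyp2j5 next to it in the cluster, stood at 5.55, 4.71, 19.6, 20.6, 19.4 and 4.65 CPM in the controls. For both genes controls 3, 4 and 5 were the 3 highest, and for Cyp2j9 they stood at 19.4 to 20.6 CPM against 4.65 to 5.55 CPM with nothing between. Malat1 was high in these 3 libraries and also in control 1, where Cyp2j9 was at 5.55 CPM; its part in the split was not tested.

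The same 3 controls stood together in other members, as seen after the values were known. Cyp2j13 was at 579.9, 585.0 and 614.7 CPM in controls 3, 4 and 5 and at 476.4, 450.2 and 475.3 CPM in controls 1, 2 and 6, and Cyp4a12a was likewise highest in these 3, at 1809 to 2125 CPM against 1354 to 1728 CPM. Cyp2d26 went the other way, with 62.2, 80.2 and 55.4 CPM against 129.9, 149.7 and 166.8 CPM. Cyp1b1 and Cyp2f2, which oxidizes naphthalene, were also lowest in controls 3, 4 and 5. Cyp4b1, Cyp2e1 and Cyp2j5 showed no such order, and no test was made of it. The share of all tested genes with this order was not computed, so the order is not shown to be particular to P450 genes.

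**Figure D3:**
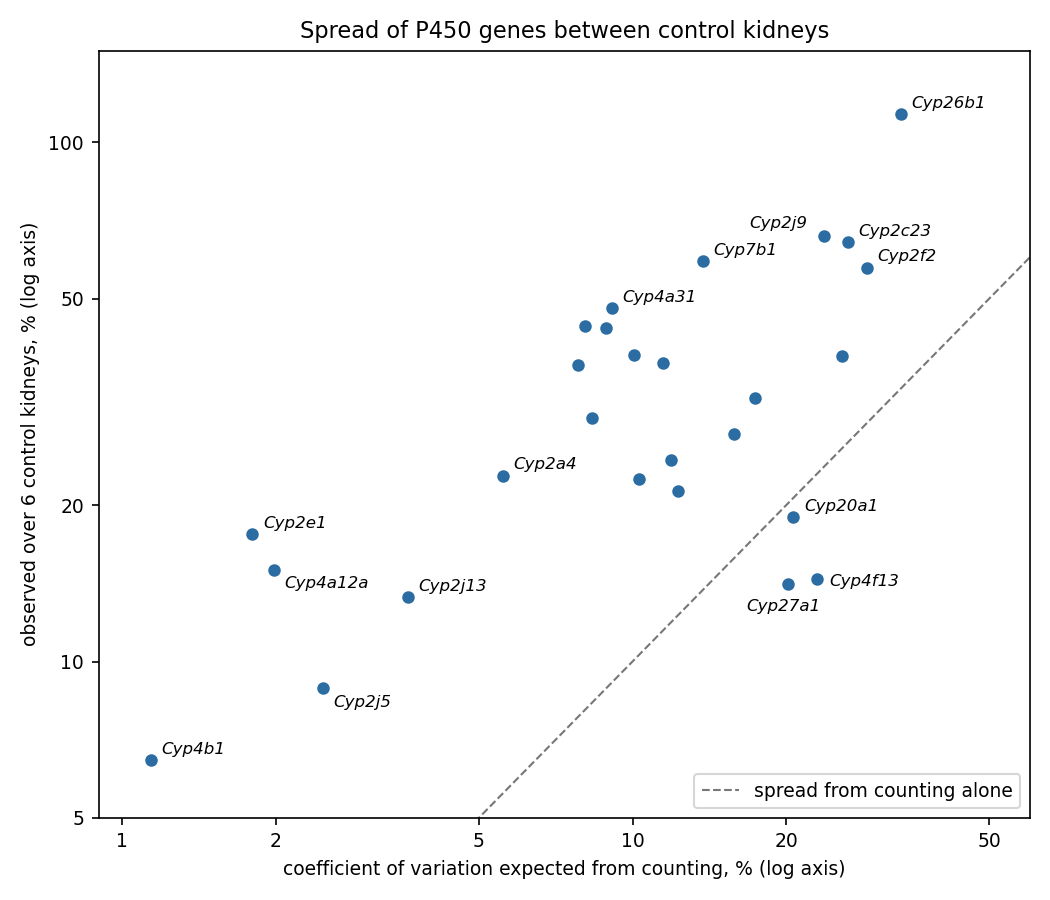
Coefficient of variation over the 6 control kidneys against the coefficient expected from counting alone, both in percent on log axes, for the 27 tested P450 genes; the dashed line marks equality. Cyp20a1, Cyp27a1 and Cyp4f13 lie on or under the line, and Cyp26b1, Cyp2j9 and Cyp2c23 are farthest above it after the part from counting is removed.

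The comparison of rilmenidine with control asked whether the drug altered P450 transcript levels. No member passed an adjusted p of 0.05 in the edgeR quasi-likelihood test, and 0% of the 10055 genes tested did. At an unadjusted p under 0.05 there were 6 of 27 members (22.2%), against 10.6% of all tested genes: Cyp4a10, Cyp2d9, Cyp20a1 and Cyp7b1 were higher with rilmenidine (4.43% of all genes were higher at this threshold) and Cyp24a1 and Cyp2j9 were lower (6.13%). DESeq2 and the edgeR likelihood ratio test each called 1 member at an adjusted p under 0.05, Cyp4a10, and 60 and 44 of all 10055 genes. In no member did the 4 rilmenidine values all lie outside the range of the 6 controls, where 1.69% of all tested genes had such separation (0.766% higher and 0.925% lower). The median log2 difference was -0.05 over the 27 members, 12 above 0 and 15 below, and 0.0021 over all tested genes.

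**Figure D4:**
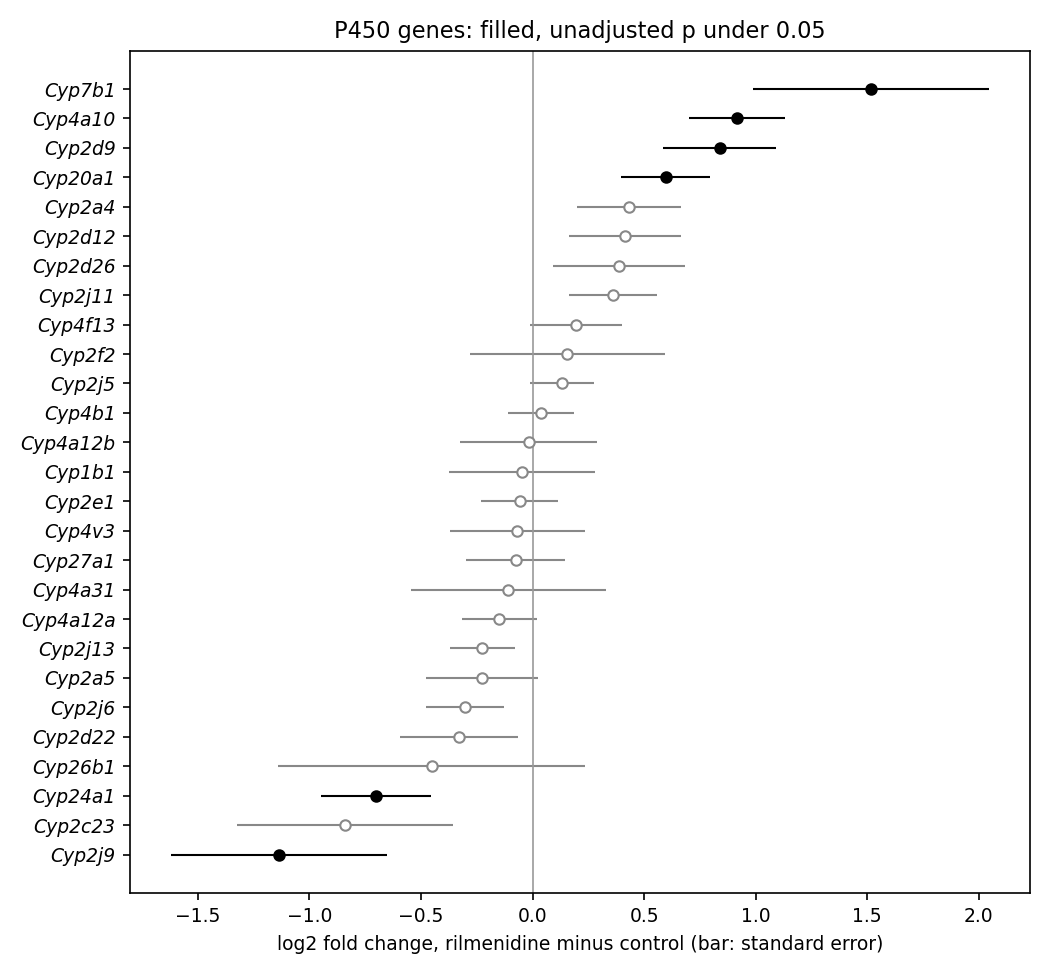
Log2 fold change, rilmenidine minus control, with its standard error as the bar, for the 27 tested P450 genes in the edgeR fit. The 6 filled points had an unadjusted p under 0.05, and no gene passed after adjustment.

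Among fatty acid hydroxylases, Cyp4a10 is a classical target of the lipid-sensing receptor PPARα. It stood at 145.5, 58.3, 93.2, 118.5, 85.7 and 106.8 CPM in controls 1 to 6 and at 129.0, 155.4, 229.3 and 242.1 CPM in rilmenidine 1 to 4. The 3 highest treated kidneys lay above all controls, and only rilmenidine 1 fell below the highest control. The difference was 0.92 on the log2 scale (SE 0.21, unadjusted p = 0.000528, edgeR adjusted p = 0.211), and the adjusted p was 0.0227 in DESeq2 and 0.0263 in the likelihood ratio test. Over the 20 alternatives the log2 value ran from 0.54 to 1.10, the lowest being that within the 7 libraries with receptor counts, where the unadjusted p in edgeR was 0.0527. Cyp4a14, its neighbour and another PPARα target, stayed under the filter with counts of 5, 5, 2, 4, 2 and 17 in the controls and 6, 50, 30 and 11 with rilmenidine, and it is named after its values were seen.

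Other genes on which PPARα is known to act were counted from a list of 12. Of the 10 tested, 3 were higher at an unadjusted p under 0.05 in the edgeR quasi-likelihood test (4.43% of all tested genes were), none was lower and none passed adjustment in that test, and their median log2 difference was 0.32. Vnn1, the pantetheinase that recycles vitamin B5, had the smallest p: it stood at 26.6, 25.3, 18.8, 28.7, 26.3 and 29.8 CPM in the controls and at 33.8, 54.8, 51.4 and 40.6 CPM with rilmenidine, without overlap of the groups (log2 difference 0.80, SE 0.18, adjusted p = 0.193 in the edgeR quasi-likelihood test). The adjusted p of Vnn1 was 0.0319 in DESeq2 and 0.0226 in the edgeR likelihood ratio test. Angptl4, an inhibitor of lipoprotein lipase, and Acot1, a fatty acyl-CoA thioesterase, differed by 1.00 (SE 0.38) and 0.54 (SE 0.24). Ppara itself stood at 19.5 ± 2.97 CPM (SD, n = 6) and 18.7 ± 9.15 CPM (SD, n = 4).

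Cyp2d9, a testosterone 16α-hydroxylase typical of male mice, stood at 62.2, 136.1, 135.8, 94.2, 60.6 and 47.6 CPM in the controls and at 145.7, 125.9, 175.8 and 188.8 CPM with rilmenidine. Controls 2 and 3 were far above the other 4 and overlapped rilmenidine 2. The log2 difference was 0.84 (SE 0.25, unadjusted p = 0.00417, edgeR adjusted p = 0.279), and it ran from 0.48 to 1.10 over 20 alternatives. The lowest value was that within the 7 libraries with receptor counts, where the unadjusted p in edgeR was 0.111. The other tested members of its cluster were Cyp2d26, Cyp2d12 and Cyp2d22, with log2 differences of 0.39 (SE 0.30), 0.41 (SE 0.25) and -0.33 (SE 0.26). Cyp2d9 and Cyp2d12 were 92.1% identical in coding sequence.

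Within the Cyp2j cluster the values went both ways. Cyp2j9 stood at 9.75, 4.74, 3.82 and 4.65 CPM with rilmenidine, so rilmenidine 1 lay between the lower and the higher 3 controls and the other treated kidneys lay beside the lower ones. Its log2 difference of -1.14 (SE 0.48, unadjusted p = 0.0315, edgeR adjusted p = 0.423) became 0.07 when log2 Malat1 was a covariate and -0.49 with log2 library size, and its unadjusted p in edgeR was 0.0589 to 0.0870 without control 3, 4 or 5 or rilmenidine 2, 3 or 4. Cyp2j11 differed by 0.36 (SE 0.20), Cyp2j5 by 0.13 (SE 0.14), Cyp2j13 by -0.22 (SE 0.14) and Cyp2j6 by -0.30 (SE 0.18). Over the 14 tested Cyp2 genes, 7 were above 0 and 7 below with a median of 0.04, and over the 7 tested Cyp4 genes 3 were above and 4 below with a median of -0.02.

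**Figure D5:**
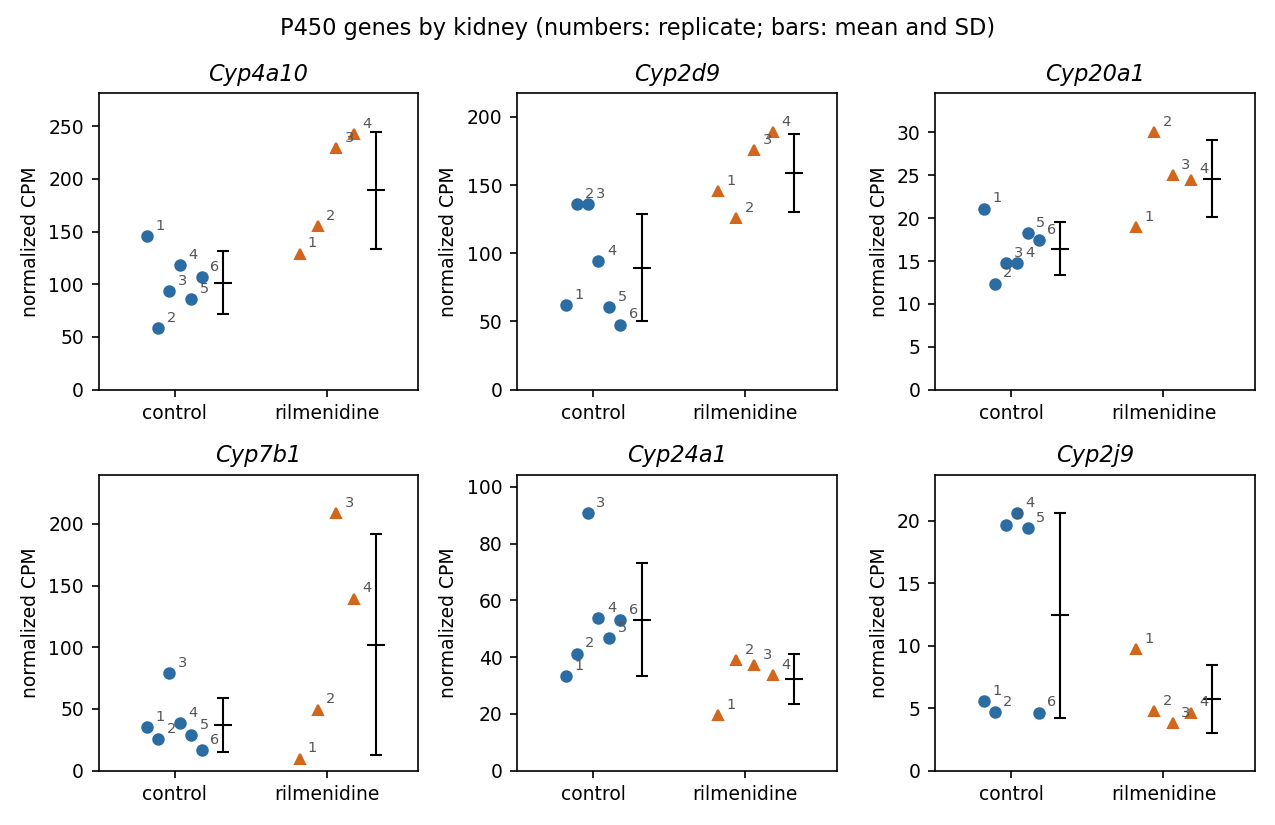
Normalized CPM in each kidney for the 6 P450 genes with an unadjusted p under 0.05; circles are controls, triangles rilmenidine kidneys, numbers the replicate, and bars the mean and SD. The groups overlap in every panel, by rilmenidine 1 alone for Cyp4a10, Cyp20a1 and by rilmenidine 1 and 2 for Cyp7b1.

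Vitamin D is activated in the kidney by Cyp27b1, the 25-hydroxyvitamin D 1α-hydroxylase, and broken down by Cyp24a1, the 24-hydroxylase, after 25-hydroxylation, mainly in liver, by Cyp2r1 and to a lesser degree by Cyp27a1. Cyp24a1 stood at 33.3, 41.2, 90.8, 53.7, 46.8 and 53.0 CPM in controls 1 to 6 and at 19.5, 39.0, 37.2 and 33.8 CPM in rilmenidine 1 to 4. Control 3 was the highest and rilmenidine 1 the lowest, and 3 treated kidneys lay between controls 1 and 2. The log2 difference was -0.70 (SE 0.24, unadjusted p = 0.0109, edgeR adjusted p = 0.321), and it ran from -0.86 to -0.49 over 20 alternatives. With log2 Malat1 as a covariate it was -0.65, with an unadjusted p in edgeR of 0.0509. Cyp27a1 stood at 17.3 ± 2.44 CPM (SD, n = 6) and 16.6 ± 4.96 CPM (SD, n = 4), a log2 difference of -0.08 (SE 0.22).

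Cyp27b1 and Cyp2r1 did not pass the filter and were not tested. Raw counts of Cyp27b1 were 0, 6, 3, 0, 6 and 18 in the controls and 5, 3, 3 and 16 with rilmenidine, so the ranges overlapped and no difference was detectable at this depth. Cyp2r1 had 5 counts over all kidneys, at most 3 in one. Of 15 vitamin D partners and targets, 13 were tested and none had an unadjusted p under 0.05. Vdr, the receptor of active vitamin D, stood at 603.8 ± 86.2 CPM (SD, n = 6) and 577.6 ± 59.8 CPM (SD, n = 4), with a log2 difference of -0.06 (SE 0.13).

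Of the 5 genes for sterols and bile acids, only Cyp7b1 was tested. Cyp7b1, the oxysterol 7α-hydroxylase, had the largest log2 difference of all tested members and a wide spread. It stood at 35.5, 25.3, 79.3, 38.3, 28.6 and 16.6 CPM in the controls and at 9.75, 49.5, 208.8 and 139.5 CPM with rilmenidine. Rilmenidine 3 and 4 were above all controls, rilmenidine 2 lay inside the control range and rilmenidine 1 was the lowest of all 10 kidneys. The difference of 1.52 (SE 0.53, unadjusted p = 0.0109, edgeR adjusted p = 0.321) turned to -0.43 within the 7 libraries of at least 10 receptor CPM. These leave out rilmenidine 3 and 4 and also control 6, the lowest control at 16.6 CPM. The log2 difference was 0.92 to 1.89 when any 1 kidney was left out, the lowest without rilmenidine 3 (unadjusted p = 0.0995 in edgeR). The difference was 2.08 with log2 Malat1 as a covariate and 1.14 with log2 library size, with unadjusted p in edgeR of 0.0188 and 0.241. The other 4, Cyp7a1, Cyp8b1, Cyp39a1 and Cyp46a1, had 11, 1, 39 and 10 counts over all kidneys, and 8 of the 11 of Cyp7a1, the rate-limiting enzyme of bile acid synthesis, were in rilmenidine 2. Among 10 tested oxysterol and bile acid partners none had an unadjusted p under 0.05.

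Rilmenidine 3 and 4 also held the highest levels among treated kidneys of Cyp4a10, Cyp2d9, Cyp2a4, Cyp2e1, Cyp4a12a, Cyp2j5, Cyp2j11 and Cyp2j13. These members were picked after the values were seen. Other tested members went otherwise, among them Cyp4a31, Cyp4a12b, Cyp2d12, Cyp2d26, Cyp2d22, Cyp27a1 and Cyp20a1, each highest among treated kidneys in rilmenidine 1 or 2. The share of all tested genes with this order was not computed, so it is not shown to be particular to these members. Slc22a13, a urate and nicotinate carrier listed as a marker of the S3 segment, was also highest in rilmenidine 3 and 4 among treated kidneys. It stood at 28.1, 84.8, 149.0 and 143.9 CPM in rilmenidine 1 to 4 against 32.1 to 81.0 CPM in the controls. Of the 7 S3 markers, 2 were higher at an unadjusted p under 0.05 (4.43% of all tested genes were), and their summed level was 5645 to 7685 CPM in the controls and 4879 to 8599 CPM with rilmenidine; none was at 0. Of 7 markers of androgen-dependent proximal tubule, 2 were lower (6.13% of all tested genes were), Slc22a28 (-1.19, SE 0.24, adjusted p = 0.174 in the edgeR quasi-likelihood test and 0.00237 in DESeq2) and Slc22a30 (-1.09, SE 0.34), organic anion carriers that in controls were highest in kidneys 3, 4 and 5, as Cyp2j9 was; the summed level was 32998 to 48510 CPM and 36638 to 61459 CPM. Some markers of other segments also differed at an unadjusted p under 0.05 in edgeR. Higher were 2 of 4 tested principal cell markers and 1 of 4 of the thick ascending limb. Lower were 2 of 5 markers of the distal convoluted tubule. None of 9 tested S1 and S2 markers was called at this threshold. The same held for every tested intercalated cell, podocyte, endothelial, immune, blood and adipose marker. Of 4 tested liver markers, Apoc3 alone was called and was higher. Aqp2, a water channel of principal cells, stood at 52.0 to 78.5 CPM in the controls and 80.3 to 120.9 CPM with rilmenidine, without overlap, and Umod of the thick ascending limb at 898.1 to 1436 CPM and 1143 to 1972 CPM (adjusted p = 0.244 in the edgeR quasi-likelihood test and 0.0490 in DESeq2). The summed level was 122.1 to 164.9 CPM and 175.5 to 200.9 CPM for the principal cell list, 756.2 to 1255 CPM and 593.4 to 991.5 CPM for the distal convoluted tubule and 1283 to 1914 CPM and 1524 to 2516 CPM for the thick ascending limb, with no marker of these lists at 0 in all kidneys. The part of these cell markers in the P450 differences was not tested.

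Cyp20a1 stood at 21.1, 12.4, 14.7, 14.7, 18.3 and 17.4 CPM in the controls and at 18.9, 30.03, 25.0 and 24.5 CPM with rilmenidine, with only rilmenidine 1 inside the control range. The log2 difference was 0.60 (SE 0.20, unadjusted p = 0.00827, edgeR adjusted p = 0.309). It was 0.42 without both second kidneys and 0.62 within the libraries with receptor counts, with unadjusted p in edgeR of 0.0683 and 0.0543. Cyp1b1, which hydroxylates estradiol and was the highest and only tested Cyp1 gene, stood at 28.2 ± 7.75 CPM (SD, n = 6) and 27.7 ± 16.5 CPM (SD, n = 4). Cyp26b1, the only tested gene of 3 for retinoic acid breakdown, differed by -0.45 (SE 0.69, adjusted p = 0.874 in edgeR), and this value turned positive with library size, Malat1 or a replicate block in the fit and was 0.36 without control 5. Of 8 tested genes of retinoid handling, Aldh1a1, which makes retinoic acid, was higher (0.43, SE 0.17) at an unadjusted p under 0.05 in edgeR. Rdh10, which makes retinal, was lower (-0.36, SE 0.16) at this threshold. Over all tested genes 4.43% were higher and 6.13% lower, and neither of the named genes passed adjustment.

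The partners that P450 enzymes need ranged widely in level. Por, the reductase that feeds electrons to the microsomal enzymes, stood at 46.4 ± 10.95 CPM (SD, n = 6) in the controls and 51.1 ± 10.3 CPM (SD, n = 4) with rilmenidine, and Cyb5a, cytochrome b5, at 3193 ± 269.6 CPM and 3809 ± 568.6 CPM. Of 10 listed electron donors, the mitochondrial ferredoxin genes Fdx1 and Fdx1l were higher with rilmenidine at an unadjusted p under 0.05 in edgeR (0.31, SE 0.14, and 0.49, SE 0.20), and none was lower. At this threshold 4.43% of all tested genes were higher. Whether Fdx1l serves P450 enzymes was not examined. Fdxr, the reductase that feeds these ferredoxins, stood at only 5.08 ± 1.93 CPM (SD, n = 6) and 3.56 ± 1.24 CPM (SD, n = 4). Alas1, the first enzyme of heme synthesis, stood at 40.9 ± 12.0 CPM and 46.7 ± 9.48 CPM, and none of 8 tested genes of heme synthesis or 3 of heme breakdown had an unadjusted p under 0.05, the smallest being those of Ppox (0.85, SE 0.50) and Blvra (0.36, SE 0.18).

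Of the 18 tested nuclear receptors and regulators, Nr2f2, an orphan receptor, was lower at an unadjusted p under 0.05 (-0.26, SE 0.11). Nr1i2, the xenobiotic receptor PXR, had 60 counts over all kidneys and did not pass the filter, and Nr1i3, its relative CAR, had no count in any kidney. Ephx2, the soluble hydrolase that opens the epoxides made by Cyp2 enzymes, stood at 772.0 ± 60.7 CPM (SD, n = 6) and 758.8 ± 134.4 CPM (SD, n = 4), and none of 6 tested genes of this pathway had an unadjusted p under 0.05, Ptgs1 having the smallest (-0.29, SE 0.26). Over all 9 lists of partners, regulators and pathways, 85 of 111 genes were tested and 8 had an unadjusted p under 0.05 (6 higher, 2 lower), which is 9.41% against 10.6% of all tested genes.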

How the data were processed

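Gene counts of 10 mouse kidney libraries (6 control, 4 rilmenidine) were analysed. The study's methods give a larger number of control kidneys than the 6 labelled here; any others were not analysed here. According to the submitters' processing notes, the authors used bcl2fastq 1.8.4, Trimmomatic 0.32, STAR 2.5.2b and featureCounts 1.5 with build mm10, and deposited raw counts per Ensembl gene; the annotation release, strand setting and use of molecular identifiers are not given in the sources used here, so PCR copies and reads shared between near-identical genes could move a count. Symbols, types and coordinates came from GENCODE M21 (GRCm38), which held 42462 of 43629 identifiers; promoters came from RefSeq.

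Genes that reached 6 reads in 7 kidneys or more were normalized by RLE and tested with edgeR 4.0.16 (glmQLFit, glmQLFTest; R 4.3.3), with Benjamini-Hochberg adjustment over 10055 genes. DESeq2 1.42.0 was an alternative. CPM values use the RLE-scaled library size. The code was tested on simulated data. No 2 libraries agreed within counting noise (smallest chi-square per degree of freedom 3.67). The labels give the kidneys as biological replicates. Named genes were the vitamin D genes, the 10 highest members, the 3 with the smallest p in each direction, the 3 most and least variable, the highest of each group, selected partners and the smallest p of each list. Members and lists were chosen with earlier results of these data known. A count of 0 was given a floor of 3 counts, for counting error only.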

Additional observations from a re-analysis of the deposited data

Results flagged for a closer look

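Chance alone marks about 1 in 20 groups, and 6 of 92 groups over 46 genes had 1 kidney set apart from the rest. Cyp24a1 stood at 90.8 CPM in control 3, with the next control at 53.7 CPM. Cyp7b1 stood at 79.3 CPM in the same kidney, with the next control at 38.3 CPM. Cyp2j5 was low in control 5 at 956 CPM, with the next at 1137 CPM. Cyp2j9 was high in rilmenidine 1 at 9.75 CPM, with the next treated kidney at 4.74 CPM. Outside the P450 genes, Trpm6, a magnesium channel of the distal convoluted tubule, stood at 16.6 CPM in control 5, with the next at 9.99 CPM, and the hemoglobin gene Hbb-bt at 952 CPM in control 2, with the next at 325.3 CPM. Without control 3 the log2 difference of Cyp24a1 stayed below 0 and that of Cyp7b1 above 0, and neither passed an adjusted p of 0.05 in edgeR.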

How the results depend on the processing

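Testing every gene with a count in any kidney (27565 genes, 91 members) called 5 members and 241 of all genes at an adjusted p under 0.05 in edgeR. The members were Cyp7b1 (3.29e-15), Cyp4a10 (3.02e-06), Cyp2d9 (5.03e-05), Cyp4a14 (0.0147) and Cyp24a1 (0.0272), hence 1 vitamin D gene. For Cyp7b1 the log2 difference was 1.52 both here and in the main test, whereas its standard error was 0.173 here and 0.529 there. Its small adjusted p thus came with a smaller standard error and not with a larger difference. In this wider test 15 members and 2035 of all genes had an unadjusted p under 0.05 in edgeR. The median log2 difference was 0.22 over the members and 0.083 over all genes. In this setting 3 genes of the pathway lists were called, and the cause was not tested. DESeq2 called 1 member and 1 pathway gene, as did the likelihood ratio test, Cyp4a10 and Vnn1 in each. Of all 10055 genes tested, DESeq2 called 60 and the likelihood ratio test 44. TMM normalization changed no call and no direction of a named gene. Leaving out 1 kidney at a time gave 0 members at an adjusted p under 0.05 in edgeR (0 to 37 of all genes). At an unadjusted p under 0.05 it gave 4 to 9 members (743 to 1457 of all genes), and the median of the members was -0.0816 to 0.0644. Groups without overlap were seen in 0 to 3 members: 3 without control 1 (Cyp4a10, Cyp20a1, Cyp24a1), 2 without rilmenidine 1 (Cyp4a10, Cyp20a1) and 1 without rilmenidine 2 (Cyp2d9). Fewer kidneys make separation easier for any gene. The share of all tested genes was not computed with a kidney left out, so these counts are not read as a trait of the members. Leaving out both second kidneys moved the median to 0.0640. The number of members at an unadjusted p under 0.05 was 4 with library size as a covariate (Cyp20a1, Cyp24a1, Cyp2d9, Cyp4a10), 4 with Malat1 (Cyp20a1, Cyp2d9, Cyp4a10, Cyp7b1) and 4 within the 7 libraries with receptor counts (Cyp24a1, Cyp2d12, Cyp2d26, Cyp2j13). Over all tested genes the number was 432 of 10055 with library size, 304 of 10055 with Malat1 and 1034 of 9796 within the receptor libraries.

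Directions turned as follows, none of them called. With library size: Cyp27a1 0.0635, Cyp4b1 -0.0552, Cyp26b1 0.0782, Por -0.176, Alas1 -0.124 and Hbb-bt -0.245. With Malat1: Cyp2d26 -0.158, Cyp2j9 0.0743, Cyp26b1 1.502, Alas1 -0.0805, Ephx2 0.0588 and Hbb-bt -0.578. Within the libraries with receptor counts: Cyp27a1 0.132, Cyp4b1 -0.0963, Cyp2j5 -0.0939, Cyp2a4 -0.278, Cyp7b1 -0.435 and Cyp1b1 0.0943. Without both second kidneys: Cyp2e1 0.145, Cyp1b1 0.238 and Ephx2 0.0411. With 1 kidney left out: Cyp1b1 -0.348 to 0.231, Cyp26b1 -0.867 to 0.363, Cyp27a1 -0.270 to 0.0644, Cyp2e1 -0.174 to 0.0614, Cyp4b1 -0.0729 to 0.120, Ephx2 -0.110 to 0.0521, Hbb-bt -0.0340 to 0.861, Por -0.0207 to 0.209 and Vdr -0.118 to 0.0178.

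Control and treated kidneys of the same number shared only a number: their deviations from the group means correlated at 0.0761, 0.0782, -0.0770 and -0.0070. With the replicate number as a block, 0 members passed adjustment (3 of all 10055 genes did), 8 had an unadjusted p under 0.05 (917 of all genes) and Cyp26b1 turned to 0.144. The receptor, Malat1 and second-kidney settings were chosen after seeing the data. Depth limits the 72 members under the filter, which the main test left out.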
